A study of Mus musculus with 80 samples.

Results

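The loss of CpG methylation between 24 h and 168 h in 2i was followed in UHRF1 WT, the wild-type control line of the UHRF1 knockout in the study, in 36616 autosomal tiles. A tile is a window of 500 bp, and it was kept when each of 4 reduced representation bisulfite sequencing (RRBS) libraries held 20 or more calls at 3 or more CpG positions in it. The 4 libraries were replicates 1 and 2 at 24 h and replicates 1 and 2 at 168 h, out of 51 RRBS libraries and 80 samples in the series. All of them came from mouse embryonic stem cells (ESCs) labelled as wild type on the E14 background, which grew in serum with LIF before the medium was replaced by 2i, a serum-free medium with LIF and inhibitors of MEK and GSK3. UHRF1 WT was also sampled in serum and at 48, 72 and 96 h, and 11 of its libraries could be used (serum replicate 2 was nearly empty, so serum has 1 library). UHRF1 KO, labelled UHRF1-/-, and E14 itself, labelled wild type, have the same background label and served for comparison, with 2 libraries at each time. The 168 h libraries of UHRF1 KO and the 24 h libraries of E14 stand out of the order of their own time courses, and whether they match their labels could not be checked here, so values at other times are given beside the mean differences, tile counts and named tiles that rest on them. The labels do not say whether replicates came from separate cultures, so the spreads and p-values given here rest on differences between libraries, which may be technical. In the reported fits, p-values of single tiles draw mostly on a dispersion shared across tiles and on call numbers, not on that tile's libraries alone.

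Methylated CpGs are copied to new DNA strands by the maintenance methyltransferase DNMT1. UHRF1 brings DNMT1 to newly replicated DNA: it recognises CpGs that carry the mark on one strand only and binds histone H3 methylated at lysine 9 (H3K9me2 and H3K9me3). Where maintenance is incomplete, each division dilutes the mark. ESCs in serum are highly methylated outside CpG islands, and ESCs in 2i adopt a naive state with low methylation. RRBS reads CpG-rich fragments and so covers many CpG islands, most of which carry little methylation. Bisulfite sequencing reads 5-methylcytosine and 5-hydroxymethylcytosine alike.

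Methylation was lower in both 168 h libraries than in either 24 h library. The mean over the 36616 tiles was 24.7% and 24.9% in the 24 h libraries and 11.1% in each of the 168 h libraries. The group means were 24.8% ± 0.1202 (SD, n = 2) and 11.1% ± 0.00921 (SD, n = 2), a change of -13.7 percentage points. The groups did not overlap, but 2 against 2 libraries cannot give a two-sided exact permutation p below 0.333, which is the value found. Most tiles carried little methylation to lose: the median tile stood at 1.58% and 1.81% at 24 h and at 0.510% and 0.752% at 168 h.

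The size of the mean change followed which tiles were covered. Tiles with 15 to 19 calls in their lowest library, just outside the limit, had a mean of 62.8% at 24 h and 29.0% at 168 h. Tiles with 20 to 24 calls, just inside it, had 57.3% and 26.7%. At 100 or more calls the means were 1.79% and 0.854%, over 9719 tiles with a median of 47 CpG positions. The share of the 24 h mean that was left at 168 h was 46.2%, 46.7% and 47.6% in these 3 groups. Between them it was lower, at 44.0% for 25 to 49 calls and 39.97% for 50 to 99 calls. The 168 h libraries were shallower, with a median of 85 and 51 calls per tile against 206 and 200 at 24 h, so depth and time move together.

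To describe tiles that had methylation to lose without choosing them on the compared libraries, tiles of 40% or more in serum replicate 1 were taken. These 10091 methylated tiles had a mean of 86.1% in serum. At 24 h their means were 80.6% and 80.8%, and at 168 h 37.6% and 36.9%. The change was -43.5 points. The 168 h libraries kept 46.6% and 45.8% of the 24 h mean, an average of 46.2%. The replicates lay within 0.7 points of each other at 168 h and were separated from the 24 h libraries by over 40 points.

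**Figure D1:**
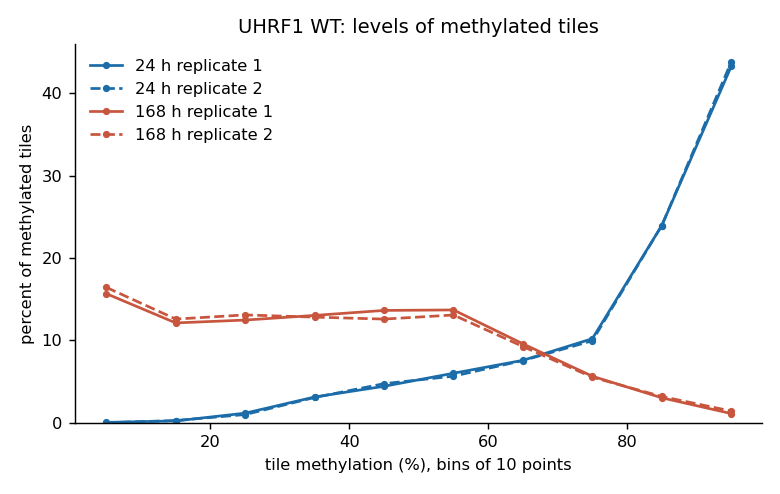
Percent of the 10091 methylated tiles (y axis) in bins of 10 points of tile methylation (x axis), one line for each 24 h and 168 h library of UHRF1 WT. At 24 h 43.2% and 43.8% of tiles stood at 90% or more, and at 168 h 1.12% and 1.43% did, while 15.7% and 16.4% lay under 10%.

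The distribution of levels changed as well as its mean. At 24 h, 67.2% and 67.7% of methylated tiles stood at 80% or more, against 4.15% and 4.62% at 168 h. At 168 h the tiles were spread almost evenly from 0 to 60%, with 12.1% to 16.4% of them in each bin of 10 points. The share kept by single tiles had a median of 44.1%, and its 5th and 95th percentiles were 5.53% and 83.4%. This spread repeated in part between the libraries: across tiles, the shares kept in the 168 h replicates correlated with r = 0.793 (a description over 10091 tiles, in which both shares were divided by the same 24 h mean). The median difference between the replicates was 10.0 points of share kept. Methylated tiles held a median of 97 calls in 24 h replicate 1 and 28 in 168 h replicate 2. Counting noise at this depth adds to the spread between tiles.

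In the quasi-binomial fit across all 36616 tiles, 9841 tiles fell (26.9% of those tested) and 1 rose (0.00273%), at an adjusted p under 0.05 and a difference of 20 points or more. Of the 10091 methylated tiles, 9084 fell (90.02%). With a minimum of 10 calls per tile 23716 of 56848 tiles were called, and with 50 calls 973 of 18443, since deep tiles were mostly unmethylated. The median change was -43.8 points over the tiles that fell and -1.15 points over all tiles. Both 168 h libraries lay below both 24 h libraries in 21339 tiles (58.3%) and above both in 1273. Among methylated tiles the groups were separated in the lower direction in 9869 (97.8%).

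The 8 tiles with the largest falls, of those with 50 or more calls in every library, lost almost all of their methylation. In chr4:138390501-138391000 (NCBIM37; 12 CpG positions) methylation was 93.1% and 93.3% at 24 h and 2.53% and 1.75% at 168 h, a fall of 91.0 points in pooled calls (adjusted p = 1.2e-09). With the dispersion prior taken from all tiles the adjusted p of this tile was 0.010, and by limma on log2 ratios it was 2.5e-04. The serum library had 97.7%, and the 48, 72 and 96 h libraries passed through 74.2% and 75.9%, 62.0% and 69.3%, and 40.6% and 43.5%. This tile therefore lost methylation in every interval sampled. In chr14:121634001-121634500 (10 positions) the levels were 93.0% and 92.4% at 24 h and 0.980% and 3.45% at 168 h (adjusted p = 2.6e-09). By 96 h neither library of this tile exceeded 22.2%. In chr8:3432501-3433000 (8 positions) the levels were 94.7% and 92.2% at 24 h and 1.96% and 8.93% at 168 h (adjusted p = 3.1e-08).

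The other 5 tiles of this kind were chr4:125842501-125843000, chr12:92886501-92887000, chr7:106020501-106021000, chr8:111424501-111425000 and chr4:136521001-136521500. Their 24 h libraries lay between 83.8% and 95.4% and their 168 h libraries between 2.65% and 14.04%. Gene annotation on NCBIM37 was not used here, so tiles are given by position.

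No tile with 50 or more calls in each library was called higher at 168 h. The 5 tiles of this depth whose methylation was highest at 168 h, among those of 80% or more in serum, behaved differently from the bulk. In chr6:48730001-48730500 (12 positions) 24 h replicate 2 had 97.8% and the 168 h libraries had 97.4% and 98.1%, against a mean of 96.4% ± 2.00 (SD, n = 2) at 24 h. In chr3:23586501-23587000 (16 positions) they had 97.8% and 97.4%, then 92.7% and 98.2%. Groups overlapped in both tiles. The remaining tiles, chr17:50392001-50392500, chr19:27567501-27568000 and chr4:7229001-7229500, stood at 89.1% to 96.7% at 168 h. They were chosen for their 168 h level, so their levels are a description. The adjusted p-values of the 5 tiles ran from 0.12 to 0.67. In chr6:48730001-48730500 UHRF1 KO, which did not choose the tile, went from 95.2% and 97.2% at 24 h to 58.3% and 57.6% at 168 h. At 96 h, a time at which its libraries were in order, it had 57.1% and 65.6%.

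**Figure D2:**
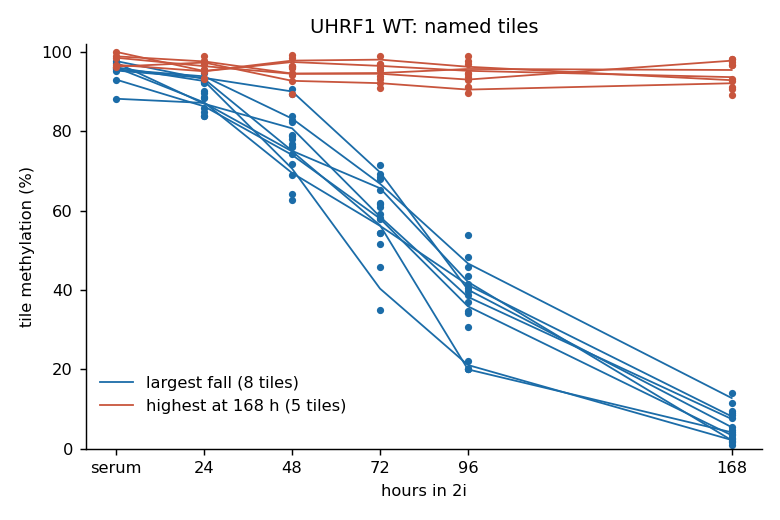
Tile methylation (y axis, %) by hours in 2i (x axis, serum first) for the 8 tiles with the largest falls and the 5 tiles highest at 168 h; points are single libraries of UHRF1 WT and lines join the means of each time. The 8 tiles reach 0.980% to 14.04% at 168 h, and the 5 tiles stay at 89.1% or above.

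Tiles that fell were mostly isolated at this coverage. The 9841 tiles formed 9403 runs of adjacent tiles, of which 396 held more than a single tile. The longest runs had 5 tiles. In chr2:25432501-25435000 the mean over the run was 41.9% and 47.3% at 24 h and 5.23% and 8.17% at 168 h. In chr7:53048501-53051000 it was 64.9% and 70.3%, then 34.4% and 30.9%. A tile of 60% or more in both 168 h libraries was found 1275 times, and the longest runs of such tiles had 4. In chr8:125951001-125953000 the run stood at 94.6% and 94.3% at 24 h and at 75.9% and 77.9% at 168 h, and in chr13:45662001-45664000 at 93.0% and 93.6%, then 76.3% and 70.2%. Share kept was similar in neighbours: adjacent methylated tiles correlated with r = 0.722 (419 pairs), tiles 1000 bp apart with 0.464 (184 pairs), tiles 10000 bp apart with 0.172 (76 pairs) and tiles 50000 bp apart with 0.440 (71 pairs). These correlations are across tiles of the same libraries and are given as a description.

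The serum level of a tile went with the share it kept. Tiles of 95 to 100% in serum (4176 tiles) had 91.9% and 92.0% at 24 h and 50.3% and 49.3% at 168 h, which kept 54.1%. Tiles of 90 to 95% kept 44.8%, and those of 80 to 90% and of 60 to 80% kept 35.3% each. Tiles of 40 to 60% kept 30.2%, and tiles of 20 to 40% kept 21.3%, falling from 23.6% to 5.02%. Each step in this order, except between 60 to 80% and 80 to 90%, was larger than the difference between the replicates. The order in points was another one: the largest loss, 51.3 points, was in tiles of 80 to 90%, against 42.2 points in tiles of 95 to 100%.

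**Figure D3:**
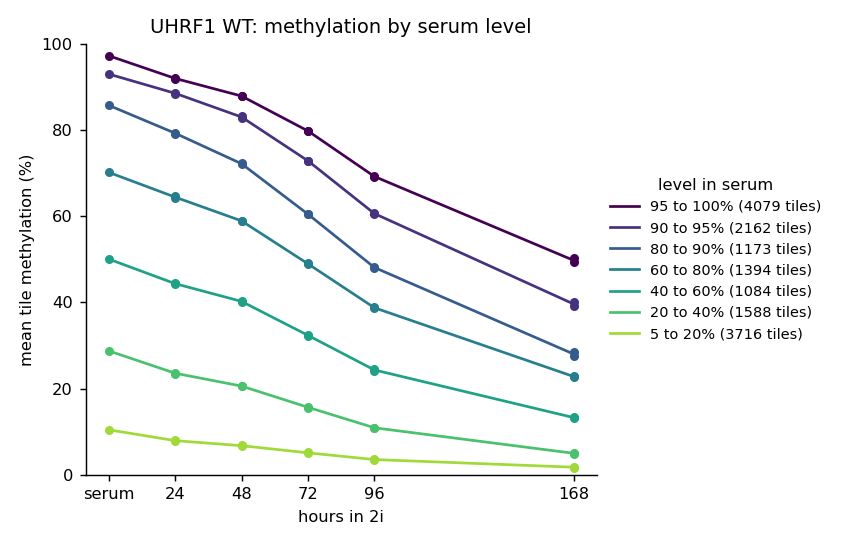
Mean tile methylation (y axis, %) by hours in 2i (x axis, serum first) in the 11 usable UHRF1 WT libraries, for tiles grouped by their level in serum replicate 1; points are libraries and lines join the means of each time. Every group declines, from 97.3% in serum to 50.3% and 49.3% at 168 h in the highest and from 10.4% to 1.63% and 1.90% in the lowest. The serum points are the values that chose the groups.

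The number of CpG positions in a tile did not separate the share kept in tiles of 80 to 100% in serum, the only level split in this way. Among all methylated tiles, those with 3 to 9 positions kept 47.2%, those with 10 to 19 kept 44.4% and those with 20 to 39 kept 38.8%. The last group also started lower, with a mean of 71.7% in serum against 88.1% in the first. Among tiles of 80 to 100% in serum, the same groups kept 48.8%, 48.7% and 49.7%, about as far apart as the libraries within a group.

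Libraries of the times between placed the loss within the interval. In the 9892 methylated tiles covered in all 11 libraries, the 24 h libraries had means of 80.5% and 80.7%. By 48 h these were 75.6% and 75.8%, and by 72 h 66.4% and 66.5%. The 96 h libraries had 55.6% and 55.7%, and those of 168 h 37.5% and 36.8%. Replicates differed by less than 0.7 points at each time. The level kept over 24 h was 93.8% ± 0.157 (SE from 2 libraries at each end) from 24 h to 48 h, 87.8% ± 0.128 from 48 h to 72 h and 83.7% ± 0.130 from 72 h to 96 h. From 96 h to 168 h it was 87.4% ± 0.272 per 24 h, which assumes a constant rate over the interval. The first of these rates was close to the 93.8% from serum to 24 h, for which serum had 1 library. That library also chose the tiles, so its level may stand high by selection. In points per day the mean moved most between 72 h and 96 h, when it fell by 10.8 points.

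Single methylated tiles followed this order. Of the 9892, 7160 (72.4%) fell at each of the 4 steps from 24 h on, in pooled calls. A tile first reached 50% of its serum level or less by 24 h in 0.505% of cases and by 48 h in 1.37%. For 6.92% this was the 72 h sample, for 15.5% the 96 h sample and for 37.5% the 168 h sample. The remaining 38.2% had not reached it by 168 h.

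Tiles at the extremes of share kept were described further. In 425 methylated tiles (4.21%) both 168 h libraries kept 80% or more of the 24 h mean. They were 54.0% of the tiles that passed this limit in replicate 1 and 51.0% of those that passed it in replicate 2. In 597 tiles (5.92%) both kept under 10%. The levels that chose these tiles are no finding, but other libraries were not used to choose them. At 96 h in UHRF1 WT the 425 tiles stood at 83.1% and 83.0%, the 597 tiles at 19.6% and 18.9%, and the other methylated tiles at 56.7% and 56.9%. In E14, the 364 covered tiles of the first kind went from 85.4% at 24 h to 71.9% at 168 h and kept 83.8% and 84.6%. The 553 covered tiles of the second kind went from 47.6% to 5.02% and kept 9.93% and 11.2%, and the 8468 others kept 42.4% and 42.7%. The order was therefore the same in E14 libraries. The 24 h libraries of E14 are among those out of order. Over the tiles covered in each library, E14 had 36.7% and 37.5% in serum, 48.96% and 46.4% at 24 h and 25.2% in each 48 h library in tiles of the second kind, against 84.0% and 83.3% at 48 h in those of the first. In UHRF1 KO, 137 tiles of the first kind kept 72.2% and 70.4%, 204 of the second 54.5% and 54.4%, and 2579 others 64.1% and 64.5%. These shares rest on the 168 h libraries of UHRF1 KO, which stand apart from the rest of that line. Over the tiles covered in each library, those of the second kind had 31.7% and 30.1% at 24 h and 11.5% and 10.7% by 96 h, and those of the first kind 79.4% and 78.4%, then 50.2% and 48.5%.

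The tiles with low shares kept also stood lower in serum, at 73.8% against 92.1% for those with high shares and 86.6% for the others. Their median numbers of CpG positions were 8, 7 and 8. None of the 595 tiles with low shares and an H3K9me2 value lay in H3K9me2-high windows, against 44 of 418 (10.5%) with high shares and 3.90% of the others.

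H3K9me2 came from ChIP followed by bisulfite sequencing (ChIP-BS) in E14 ESCs, with 2 bound and 2 input libraries in 2i. H3K9me2-high windows were the 10% of 10-kb windows with the highest ratio of bound to input calls. The 396 methylated tiles in them had 84.2% and 84.5% at 24 h and 54.6% and 54.1% at 168 h. The 9654 methylated tiles in other windows had 80.5% and 80.7% at 24 h and 36.9% and 36.2% at 168 h. The first group kept 64.7% and 64.1%, and the second 45.8% and 44.9%. The difference was 18.9 points in replicate 1 and 19.2 in replicate 2, far more than the libraries differed. It was described without a test, because it rests on 2 libraries. With windows ranked by H3K9me2 in serum in place of 2i it was 11.1 points.

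**Figure D4:**
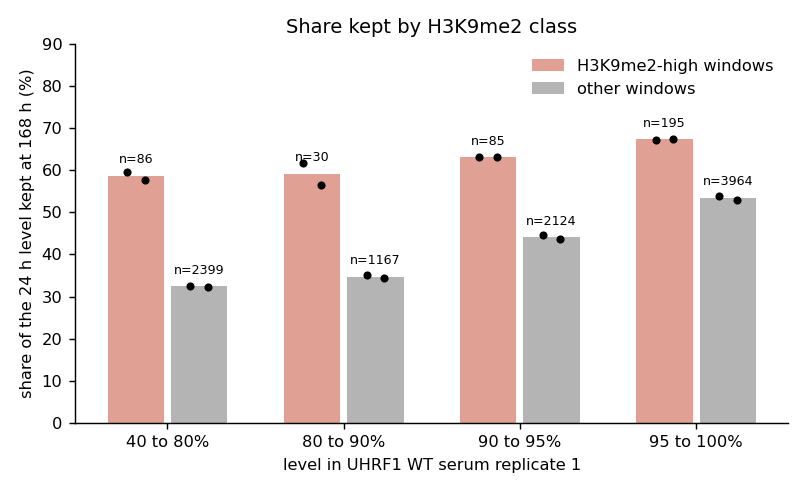
Share of the 24 h level kept at 168 h (y axis, %) in methylated tiles grouped by their level in serum (x axis), for tiles in H3K9me2-high windows and in other windows; bars are means of the 168 h libraries, points are single libraries and n is the number of tiles. H3K9me2-high tiles keep more at each serum level, from 58.7% against 32.4% at 40 to 80% to 67.3% against 53.4% at 95 to 100%.

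This difference was present at each serum level. Tiles of 40 to 80% in serum kept 58.7% in H3K9me2-high windows and 32.4% elsewhere, and tiles of 95 to 100% kept 67.3% and 53.4%. It was also present at each number of CpG positions: tiles with 3 to 9 positions kept 64.7% and 46.2%, and tiles with 10 to 19 positions 62.3% and 43.8%. Over 5 groups of 2010 methylated tiles each, in rising order of the ratio, the share kept was 37.0%, 38.6%, 41.7%, 50.5% and 61.4%. The input was shallow, with a median of 1 call per covered position.

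Mean methylation was lower at 168 h on every chromosome. The share kept ranged from 41.1% on chromosome 11 (792 methylated tiles) and 42.1% on chromosome 17 to 51.8% on chromosome 6 and 53.1% on chromosome 13 (345 tiles), and the libraries differed by 2.47 points or less on each autosome. On the X chromosome, which the count of 36616 leaves out, 67 methylated tiles kept 59.9% and 57.5%, from 76.4% at 24 h to 44.9% at 168 h.

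Compared with UHRF1 KO, the change between 24 h and 168 h was larger in UHRF1 WT, in a comparison that turns on the 168 h libraries of the knockout. In 24985 tiles also covered in the knockout, UHRF1 WT had 11.1% and 11.2% at 24 h and 4.65% and 4.76% at 168 h. UHRF1 KO had 8.18% and 8.04%, then 5.57% and 5.51%. The change in UHRF1 WT was -6.42 points and that in UHRF1 KO -2.57 points, a difference of -3.85 points. Exact permutation of the line labels within each time gave a two-sided p of 0.0556, the smallest that 36 arrangements allow. The lines were already apart at 24 h, so this p covers levels as well as changes. The difference of changes was -1.05 points with pooled calls and -0.938 in tiles with 50 or more calls. As a share of the 24 h mean, UHRF1 WT kept 42.3% and UHRF1 KO 68.3% at 168 h. In the 2920 methylated tiles among the 24985, UHRF1 WT went from 76.0% to 33.9% and UHRF1 KO from 54.9% to 35.4%. The knockout thus started lower at 24 h and ended slightly higher.

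The 168 h libraries of UHRF1 KO stand apart from the others of that line. In 2056 methylated tiles covered at all times in both lines, UHRF1 KO had 67.4% and 68.2% in serum and 53.9% and 53.6% at 24 h. By 48 h it had 41.5% and 41.2%, by 72 h 33.7% and 32.7%, and by 96 h 27.9% and 27.3%. Each of its 168 h libraries had 34.9%. Its level at 168 h was above that at 96 h, and every other step was downward. In these 168 h libraries 50.6% and 49.5% of positions held a single call, against 22.4% to 30.7% in the 24 h and 96 h libraries of the line, and the part of this in the result was not tested. With 96 h in place of 168 h in both lines, UHRF1 WT went from 15.3% to 9.98% and UHRF1 KO from 11.2% to 5.58% over 27642 tiles. The changes were -5.28 and -5.59 points, so the difference turned to 0.310 points. UHRF1 KO started lower at 24 h, and by these levels it kept a smaller share of its 24 h mean than UHRF1 WT. Methylation was still present in UHRF1 KO in serum. The study's methods give its Uhrf1 mutant as a floxed line in which a tamoxifen-inducible Cre was activated before the experiment, while the labels of these libraries give UHRF1-/-.

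**Figure D5:**
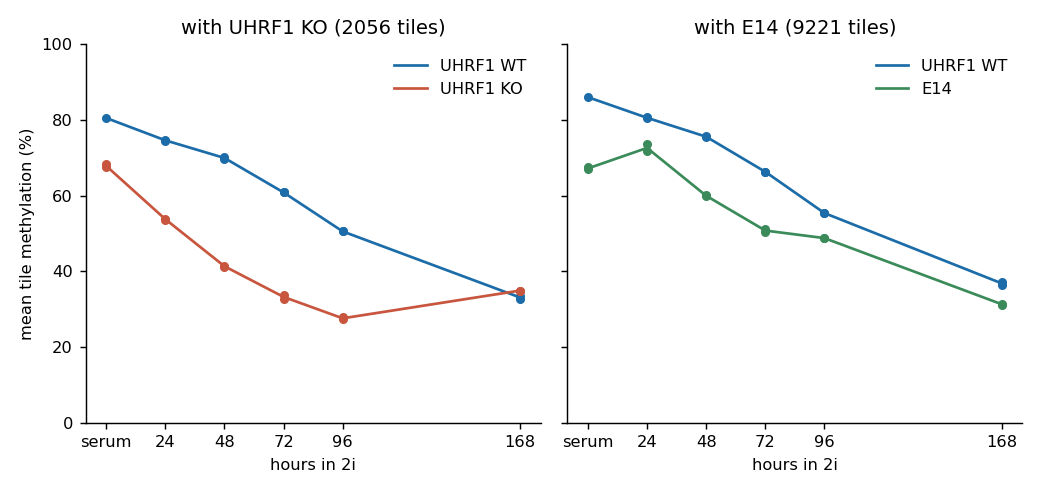
Mean tile methylation (y axis, %) by hours in 2i (x axis, serum first) in methylated tiles covered in all libraries of both lines, UHRF1 WT with UHRF1 KO on the left and with E14 on the right; points are libraries and lines join the means of each time. UHRF1 KO lies below UHRF1 WT up to 96 h and stands at 34.9% at 168 h, and E14 at 24 h, at 73.5% and 71.6%, lies above its own serum libraries.

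Tile by tile, the change differed from that of UHRF1 KO in 906 of 24985 tiles (3.63%), with UHRF1 WT falling more in 904 and less in 2. In the 904 tiles UHRF1 WT went from 69.0% and 69.2% to 17.4% and 17.3%, and UHRF1 KO from 40.7% and 40.3% to 31.1% and 31.2%. These libraries chose the tiles, so the levels are a description. The median change of UHRF1 WT there was -53.3 points, further than UHRF1 KO could fall from its 24 h means. With the dispersion prior of the first fit, taken from all tiles, the count was 372, and limma on log2 ratios called 361. Without UHRF1 WT 168 h replicate 1 the count was 251, and without replicate 2 it was 598. With 96 h in place of 168 h, 1 tile of 27642 was called (1423 had an unadjusted p under 0.05). Of the tiles with 50 or more calls in all 8 libraries, the largest difference was in chr5:137407501-137408000. UHRF1 WT had 82.5% and 80.8% at 24 h and 7.95% and 10.0% at 168 h, while UHRF1 KO had 56.9% and 61.1%, then 65.6% and 50.9% (difference of changes -70.7 points, adjusted p = 2.2e-06). Next came chr10:43231501-43232000 (-63.9 points, with UHRF1 KO at only 33.9% and 30.9% at 24 h) and chr2:180279501-180280000 (-59.5 points). With 96 h in place of 168 h in both lines these differences were -16.5, -16.1 and -18.3 points, with adjusted p-values of 0.77 or more. UHRF1 KO stood at 31.1% and 28.9% at 96 h in chr5:137407501-137408000. The tiles in which UHRF1 WT fell less were chr6:48730001-48730500, described above (39.8 points, adjusted p = 0.031, with 42 and 36 calls in the 24 h libraries of UHRF1 KO), and chr10:11211501-11212000, with 26 CpG positions. In the latter UHRF1 WT had 90.5% and 90.2% at 24 h and 86.2% and 79.0% at 168 h, and UHRF1 KO 86.7% and 79.7%, then 36.2% and 31.3% (difference 43.8 points, adjusted p = 0.010). In E14 this tile went from 91.8% and 91.2% to 65.7% and 72.9%. With 96 h in place of 168 h the differences were 27.1 points in chr10:11211501-11212000 and 31.9 points in the chromosome 6 tile, both with an adjusted p of 0.93. The call of chr10:11211501-11212000 was also lost without 168 h replicate 1 (adjusted p = 0.16), with limma (0.19) and with the dispersion prior of the first fit (0.053). That of the chromosome 6 tile, chr6:48730001-48730500, was also lost without 24 h replicate 1 (0.39), without either 168 h replicate (0.14 and 0.090), with limma (0.053) and with the replicate number as a block (0.051).

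Between 24 h and 168 h the loss in E14 was close to that in UHRF1 WT in points, and the order of the lines turned with the scale. Both statements rest on the 24 h libraries of E14 and did not hold from 48 h. In 35506 shared tiles UHRF1 WT went from 23.6% and 23.8% to 10.5% in each library, and E14 from 21.9% and 21.3% to 8.77% and 8.87%. The changes were -13.2 and -12.8 points and differed by -0.454 points. Exact permutation of the line labels within each time gave a two-sided p of 0.611. UHRF1 WT stood above E14 at both times, so the smallest p of 0.0556 was out of reach. The p of 0.611 covers that difference in level too and cannot decide whether the changes differ. As a share of the 24 h mean, UHRF1 WT kept 44.2% and E14 40.9%. In methylated tiles the changes were -43.7 and -41.2 points. E14 at 24 h stood above its own serum: in 9221 methylated tiles it had 66.9% and 67.4% in serum and 73.5% and 71.6% at 24 h, before 59.8% and 60.1% at 48 h. With 48 h in place of 24 h in both lines, UHRF1 WT went from 22.2% to 10.6% and E14 from 17.7% to 8.91%. The changes were -11.6 and -8.78 points. In the 9221 methylated tiles UHRF1 WT went from 75.4% and 75.6% at 48 h to 37.1% and 36.5% at 168 h. E14 went from 59.8% and 60.1% to 31.1% and 31.4%. By these levels UHRF1 WT lost more in points and also kept the smaller share. Between the lines 46 of 35693 tiles were called different, 45 of them with a larger fall in UHRF1 WT.

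The change differed from that of E14 in 13 of 35506 tiles (0.0366%), 6 with a larger fall in UHRF1 WT and 7 with a smaller one. Tiles without a call may differ too, since the fit called few of the smaller differences in simulated data, in which the other line did not fall. With the dispersion prior of the first fit the count was 0 (3777 had an unadjusted p under 0.05). The reported fit without UHRF1 WT 168 h replicate 2 called 0 (1857 had an unadjusted p under 0.05), and without replicate 1 it called 2. The limma fit on log2 ratios called 0 with all libraries (8641 at an unadjusted p under 0.05). In chr9:3888001-3888500 UHRF1 WT went from 93.3% and 95.2% to 47.1% and 24.2%, and E14 from 85.3% and 87.9% to 79.0% and 71.6% (difference -43.9 points, adjusted p = 0.020). The 168 h replicates of UHRF1 WT differed by over 20 points in this tile. With 48 h in place of 24 h in both lines, the difference was -39.3 points (adjusted p = 0.030). In 3 tiles with smaller falls, chr13:72094501-72095000, chr1:122511001-122511500 and chr14:68742501-68743000, UHRF1 WT was already low at 24 h, at 3.56% to 30.8%, whereas E14 had 33.3% to 50.5% at 24 h and 0.420% to 4.49% at 168 h. The 24 h libraries of E14 stood above its serum and 48 h libraries in these 3 tiles, which had 4.46% to 22.4% in serum and 3.49% to 19.02% at 48 h. At 72 h E14 was also raised in chr13:72094501-72095000 (32.8% and 35.7%) and chr14:68742501-68743000 (19.4% in each library). In chr1:122511001-122511500 it had 12.8% and 21.7% at 72 h. With 48 h in place of 24 h the differences were 7.36, 2.93 and 0.912 points, with adjusted p-values of 0.31 or more, so these calls rest on the 24 h libraries of E14.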

How the data were processed

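The authors deposited, for each RRBS and ChIP-BS library, counts of methylated and unmethylated calls per cytosine position in the coverage layout of Bismark. Their processing notes name Trim Galore 0.3.5, Bismark 0.12.3 and Bowtie2, without roles or filters, and positions fit NCBIM37. The 4 libraries held 16434167 and 16008315 calls at 24 h and 6834172 and 4067629 at 168 h. PCR copies are not separate molecules, so call numbers overstate precision.

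Calls were summed in 500-bp tiles (Python 3.11.15, pandas 2.3.3). Each tile was fitted with a quasi-binomial logistic model in R 4.3.3, dispersions were moderated by squeezeVar of limma 3.58.1, and F tests were adjusted by Benjamini-Hochberg over all tiles. A call needed an adjusted p under 0.05 and 20 points in pooled calls. Differences between lines were tested as line by time interactions. The dispersion prior came from tiles with 5 or more expected calls of each kind in every library, with dispersions held at 1 or more; this was chosen after a first fit, in which sparse tiles gave dispersions below 1, and it raised the number of tiles called. Scripts were tested on simulated data with known changes. Of 50 simulated differences between lines of 20 points, 1 was called against UHRF1 KO and 2 against E14. Of 50 differences of 50 points, 25 and 34 were called. In these simulations the other line held the 24 h level of UHRF1 WT, and only UHRF1 WT at 168 h was lowered. The simulated dispersion was below the prior fitted between lines (1.77 for UHRF1 KO and 1.58 for E14). In the data both lines fell, so these rates describe the simulated setting only. Levels were compared by exact permutation of libraries.

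H3K9me2 ratios were mean log2 ratios of each bound library to pooled input in 10-kb windows with 20 or more input calls. Named tiles had 50 or more calls in the 4 libraries (in all 8 for differences between lines): the 8 largest falls without overlap, up to 5 largest rises, the 5 with the highest lower 168 h library among those of 80% or more in serum, up to 3 per direction and line for interactions, and the longest runs. The difference from UHRF1 KO in chr6:48730001-48730500 is outside this rule and was named after its values were seen. The tile rule, lists and tests were chosen with earlier results of these data known. Alternatives changed the coverage and position minimums, the tile frame, the difference required, the test, the windows and the libraries. Replicate numbers 1 and 2 are shared by 24 h and 168 h, but the deviations of same-numbered libraries correlated with 0.0114 over tiles, so no pairing was used. Replicates were not duplicates: their mean chi-square per tile was 1.44 at 24 h and 1.68 at 168 h. UHRF1 WT serum replicate 2, the TET lines, RNA-seq and ChIP-seq were not used here.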

Additional observations from a re-analysis of the deposited data

Results flagged for a closer look

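The change from 24 h to 168 h differed between lines, by the interaction test, in 906 tiles for UHRF1 KO and in 13 tiles for E14. The first count falls to 1 when 96 h takes the place of 168 h in both lines, and the second to 0 without UHRF1 WT 168 h replicate 2 (1857 tiles at an unadjusted p under 0.05). Each count uses libraries that stand out of the order of their time course, those of UHRF1 KO at 168 h and of E14 at 24 h. With 48 h in place of 24 h in both lines, the E14 count rose to 46 of 35693 tiles. In 45 of these the fall was larger in UHRF1 WT. Groups of 2 libraries are too small to look for single libraries that lie far from the rest of their group.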

How the results depend on the processing

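The mean change ran from -3.22 points (50 calls per tile) to -21.4 (10 calls), and was -4.73 with pooled calls, always downward. The share kept was 48.95% in tiles chosen on E14 serum, 47.2% in tiles of 60% or more and 44.4% with 50 calls per tile. The H3K9me2 difference was 19.2 points with 20-kb windows, 18.5 with 25% of windows and 11.1 with classes from serum. Tiles called numbered 23716 with 10 calls and 973 with 50, because other tiles were tested, 8364 with the dispersion prior from all tiles, and 8743 to 9529 with a library left out.

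Against UHRF1 KO, the tiles called numbered 372 with the dispersion prior from all tiles, 361 with limma, 89 with 50 calls, 251 to 743 with a library left out and 1 with 96 h in place of 168 h, where the mean difference turned from -3.85 to 0.310 points. That difference shrank to -0.938 points with 50 calls and to -1.05 with pooled calls. As percent of each line's own 24 h mean it was -26.0 between 24 h and 168 h. Against E14 they numbered 0 with the prior from all tiles (3777 at an unadjusted p under 0.05), 0 with limma (8641), 6 with 50 calls, 46 with 48 h in place of 24 h, and 0 (1857) to 11 with a library left out. The mean difference from E14 turned to 3.35 percent of the 24 h mean, to 0.490 points with pooled calls and to 0.165 with 50 calls. With 48 h in place of 24 h in both lines it was -2.86 points, against -0.454 in the main setting. The causes were not tested. The prior from all tiles was that of the first fit, and the reported prior was chosen after seeing that fit. The other times and the removal of deep input tiles were also added after seeing the data. The removal took out no H3K9me2-high tile and so bears on nothing there. With the replicate number as a block (replicate block, though the numbers showed no pairing) the counts were 9855, 667 and 11.

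Of 227 values for named tiles (the other times aside), 201 kept their direction and side of the threshold, 22 lost their call, all of them differences between lines, and 4 changed sign, all in tiles whose change was not called. With a library left out these ranged from -0.0988 to 2.73 points in chr6:48730001-48730500, from -4.91 to 0.620 in chr3:23586501-23587000, from -4.55 to 1.49 in chr19:27567501-27568000 and from -6.00 to 1.58 in chr4:7229001-7229500. At 168 h 28.2% and 48.9% of tiles held under 50 calls, which limits the value of a single tile there.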

Other observations

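Tiles of 5 to 20% in serum, which the account of methylated tiles leaves out, lost most of what they had. The 3741 tiles stood at 7.88% and 8.00% at 24 h and at 1.64% and 1.90% at 168 h, and kept 20.6% and 23.9%, beside 21.3% in tiles of 20 to 40% and 30.2% in tiles of 40 to 60%. In the 21048 tiles under 5% in serum the 168 h libraries had 0.398% and 0.644% against 0.793% and 0.941% at 24 h, a mean difference of -0.346 points between the times.

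ChIP-BS inputs of E14 in serum and long-term 2i, a measurement separate from RRBS, were read in the tiles at the extremes of share kept. With 10 or more calls per tile, mean methylation in 2i was 69.1% in 194 tiles that kept 80% or more, 6.80% in 161 that kept under 10% and 30.4% in 2753 others. In serum inputs it was 85.2% (203 tiles), 35.9% (184) and 67.4% (2981).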
